A study of Mus musculus with 24 samples.

Results

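The genes described here are 33 members of the endoplasmic reticulum (ER) chaperone and unfolded protein response machinery, taken by symbol from a named list. That list was chosen with earlier results of these data known. All 33 were found among the 23309 gene models of both expression tables. The RNA libraries came from C57BL/6 mice, 12 from macrophages grown out of bone marrow (BMDM) and 8 from tumor-associated macrophages (TAM). BMDM had 7 days in medium with M-CSF and L929-conditioned medium, were moved to plain serum-containing medium the night before stimulation, and carried either a wildtype (WT) or a Tet2 knockout label. TET2 is an enzyme that oxidises methylated cytosine in DNA. The BMDM were left untreated or given interleukin 4 (IL4) at 20 ng/ml for 10 or 24 h, with 2 biological replicates in each of the 6 groups. The form of the Tet2 allele in these cultures is not given in the sources used here. TAM were sorted as CD11b+F4/80+ cells from tumors of the mouse melanoma line YUMM1.7 that had grown under the skin of male C57BL/6J mice for 4 weeks. All TAM donors carried Tet2 fl/fl. The 4 libraries labelled WT were LysMcre wt/wt, and the 4 labelled knockout were LysMcre +/wt, so that deletion there depends on Cre expressed from the LysM locus in myeloid cells. The mice were 6 to 8 weeks old. The labels do not say whether each TAM library came from 1 mouse, so p-values for TAM measure only the spread between these libraries.

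The ER folds proteins that are to be secreted or placed in membranes. The HSP70 protein of its lumen, BiP (Hspa5), works with J-domain partners and nucleotide exchange factors, calnexin and calreticulin hold glycoproteins, and protein disulfide isomerases set disulfide bonds. When unfolded protein accumulates, 3 sensors respond. IRE1 (Ern1) splices the Xbp1 mRNA into the form that encodes an active transcription factor, ATF6 is cut to release another, and PERK phosphorylates eIF2α, which slows translation in general while favouring that of ATF4. XBP1 and ATF6 raise chaperone and degradation genes, and ATF4 raises genes of amino acid supply and, with CHOP (Ddit3), of stress. Macrophages secrete cytokines, enzymes and matrix proteins, and IL4 turns them toward a program of secreted and surface proteins known as alternative activation. FPKM sums over splice forms here, so the values do not show whether Xbp1 mRNA was spliced.

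Promoters of these genes carry short elements by which the pathway is usually recognised. RefSeq promoter windows (GRCm38.p6, 250 bases before to 50 after the start) were available for 28 of the 33 members, and Hyou1, Manf, Atf6, Derl1 and Sec61a1 had no entry. The expression files use the mm9 build, so these coordinates belong only to the sequences. Motifs were searched on both strands. The ER stress response element (ERSE) is CCAAT, a gap of 9 bases and CCACG. It was found in 8 of 28 members (28.6%), namely Hspa5, Hsp90b1 with 2 copies, Dnajc3, Creld2, Calr, Canx, Pdia6 and Syvn1, against 0.137% of 27025 genes with a window. ERSE-II, ATTGG, 1 base of any kind and CCACG, was in Dnajb11 and Herpud1 (7.14%, against 0.0444% of all). TGACGTGG, the UPRE core, was in none of the 28 windows and in 0.714% of all. The C/EBP-ATF response element (CARE, TGATGNAA), an ATF4 site, was in Trib3, Asns, Chac1 and Herpud1 (14.3%, against 4.51% of all). The windows below were chosen from the members whose values the results turn on. They run 5′ to 3′ along the gene, with the whole motif, its gap included, in capitals. A motif that lies on the other strand appears as its reverse complement (CGTGG, gap, ATTGG for ERSE, and TTNCATCA for CARE).
Hspa5 promoter (chr2:34771840-34772089, plus strand): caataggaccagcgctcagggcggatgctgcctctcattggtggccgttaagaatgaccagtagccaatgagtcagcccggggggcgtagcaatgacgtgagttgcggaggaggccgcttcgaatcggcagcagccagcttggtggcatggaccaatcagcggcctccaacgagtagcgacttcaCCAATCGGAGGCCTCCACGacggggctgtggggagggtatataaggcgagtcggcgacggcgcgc
Hsp90b1 ERSE window (chr10:86705618-86705676, minus strand): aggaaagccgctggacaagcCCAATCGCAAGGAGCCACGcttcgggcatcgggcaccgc
Hsp90b1 ERSE window (chr10:86705513-86705571, minus strand): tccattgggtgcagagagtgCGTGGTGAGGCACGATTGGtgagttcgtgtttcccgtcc
Calr ERSE window (chr8:84847055-84847113, minus strand): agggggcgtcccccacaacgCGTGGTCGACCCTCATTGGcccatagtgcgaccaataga
Creld2 ERSE window (chr15:88819500-88819558, plus strand): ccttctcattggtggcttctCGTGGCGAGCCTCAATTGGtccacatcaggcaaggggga
Pdia6 ERSE window (chr12:17266471-17266529, plus strand): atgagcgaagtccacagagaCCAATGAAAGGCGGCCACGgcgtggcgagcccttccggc
Herpud1 ERSE-II window (chr8:94386357-94386407, plus strand): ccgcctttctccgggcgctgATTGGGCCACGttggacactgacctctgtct
Herpud1 CARE window (chr8:94386297-94386344, plus strand): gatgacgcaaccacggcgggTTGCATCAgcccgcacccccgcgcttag
Asns CARE window (chr6:7693205-7693252, minus strand): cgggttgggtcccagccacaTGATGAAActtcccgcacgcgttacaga
These matches describe letters only. Within the 8 members with an ERSE the IL4 response ran from a log2 difference of 0.07 (Syvn1) to 2.59 (Creld2) at 24 h in WT, and Sdf2l1 and Pdia4, with 2.68 and 2.33, had no match to any of the 4 motifs in their windows.

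Deposited values were FPKM, fragments scaled for gene length and library total, so levels may be set beside each other between genes. Differences below are on the log2(FPKM + 1) scale with their SE, from limma fits over all tested genes, with p-values adjusted over all of these genes and called under 0.05. BMDM libraries totalled 365118 to 557183 FPKM and TAM libraries 337994 to 464812, and read depth is unknown. Macrophage markers summed to 7279 to 19543 FPKM in BMDM. The Tet2 transcript did not separate the labels in one direction, with 4.11 and 5.91 FPKM in untreated WT BMDM, 4.02 and 4.48 in labelled knockout, and 9.38 and 9.82 against 11.3 and 10.3 at 24 h. In TAM it was 7.75 to 16.1 FPKM in WT and 14.4 to 19.0 in labelled knockout. A transcript level over the whole gene does not check a deletion of some exons, so the groups are called labelled knockout. BMDM and TAM libraries were prepared differently, by ribosomal RNA depletion and by polyA selection, and are not compared in level.

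In untreated WT BMDM the members spanned a wide range of levels. Hspa5 was the most abundant, at 210.9 ± 39.5 FPKM (SD, n = 2), followed by Calr at 155, P4hb at 133, Hsp90b1 at 118 and Canx at 104. The sensor mRNAs were lower, with Atf6 at 16.1 and Ern1 at 7.46. Trib3, a pseudokinase induced by ATF4 and CHOP, and Chac1, a glutathione-degrading enzyme of the same branch, stayed between 0 and 0.76 FPKM in all 12 libraries. These 2 did not reach 1 FPKM in 2 libraries and were not tested, which leaves 31 members tested in BMDM.

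The folding machinery of the ER lumen rose after IL4 in WT BMDM. After 10 h 23 of the 31 tested members had risen and 2 had fallen, and after 24 h 25 had risen and 1 had fallen. Of all 10510 genes tested, 28.2% rose and 14.2% fell at 10 h, and 29.7% rose and 20.3% fell at 24 h. The median log2 difference of the members was 0.76 at 10 h and 0.87 at 24 h, beside 0.09 and 0.06 over all tested genes. The 23 that had risen at 10 h were all among the 25 at 24 h, joined by Herpud1 and Sel1l. Marker sums moved with IL4 as well. In WT the macrophage sum ranged over 15190–19543 FPKM untreated and 9694–11315 at 24 h, and the B and plasma cell sum over 3.78–5.04 and 22.0–29.0. The latter was almost all Sdc1, at 3.60 and 3.33 FPKM untreated and 20.5 and 27.4 at 24 h, while Mzb1 was listed at 0 in all 12 BMDM libraries. The part of these markers in the IL4 differences was not tested.

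**Figure D1:**
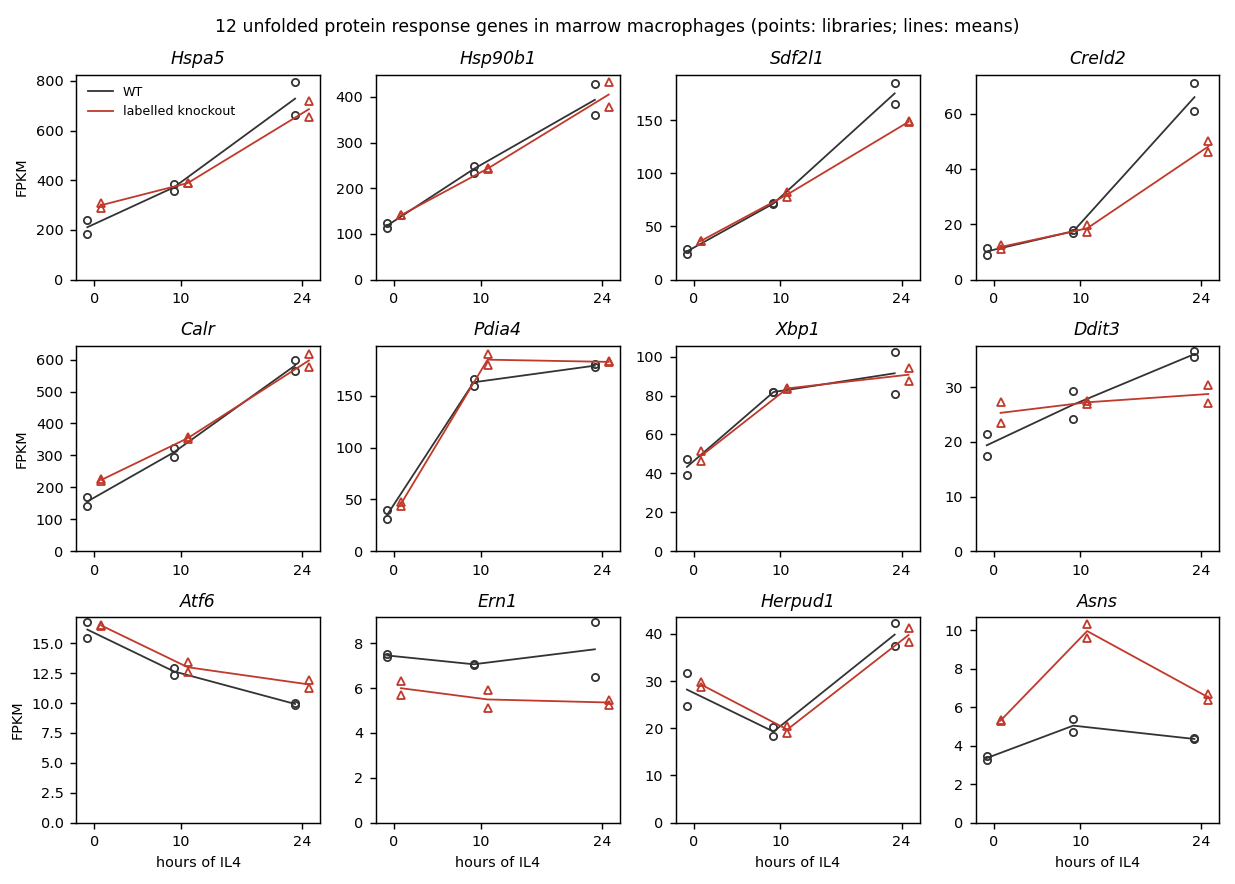
FPKM (linear axes from 0) of 12 members in BMDM against hours of IL4. Each point is a library, black circles WT and red triangles labelled knockout, and lines join group means. Hspa5, Hsp90b1, Sdf2l1, Creld2 and Calr climb through 24 h, Pdia4 and Xbp1 reach their level by 10 h, Atf6 declines, and the Asns points of labelled knockout lie above those of WT at each time.

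All 9 members of the lumenal HSP70 and HSP90 system were called higher at both times in WT, although for Dnajb9 the 10 h call depended on the processing. Sdf2l1, a partner of the ER J-domain proteins, measured 28.7 and 24.4 FPKM untreated, 71.9 and 71.4 at 10 h and 166 and 185 after 24 h of IL4. No library of one time reached those of the next, and the 24 h difference was 2.68 ± 0.11 (adjusted p = 2.3e-08, limma), a ratio of mean FPKM of 6.6. Creld2, an ER protein with disulfide isomerase activity, had a different timing. It measured 11.6 and 8.81 FPKM untreated, 18.1 and 16.8 at 10 h and 60.9 and 71.0 at 24 h. Most of its rise thus came after 10 h, with 0.73 ± 0.14 at 10 h and 2.59 ± 0.14 at 24 h (adjusted p = 0.00175 and 1.9e-07, limma).

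Hspa5, the HSP70 chaperone BiP, measured 239 and 183 FPKM untreated, 386 and 357 at 10 h and 795 and 662 at 24 h. Its 24 h difference was 1.79 ± 0.15, a ratio of 3.45, and it remained the most abundant member at 728 FPKM on average. Hsp90b1 (GRP94), the HSP90 protein of the lumen, measured 124 and 113 untreated, 249.8 and 234 at 10 h, and 427 and 359.8 at 24 h, a difference of 1.72 ± 0.12 at 24 h. Hyou1 (GRP170), a nucleotide exchange factor for BiP, measured 12.1 and 10.6 untreated, 28.8 and 27.2 at 10 h and 36.8 and 45.4 at 24 h, a difference of 1.76 ± 0.11. Untreated and treated libraries did not overlap for any of these 3 genes. Manf, a secreted and ER-resident partner of BiP, measured 13.3 and 10.5 untreated, 29.6 and 26.6 at 10 h and 46.1 and 43.6 at 24 h (difference 1.84 ± 0.14). The J-domain proteins moved least. Dnajb11 rose by 1.35 ± 0.11 at 24 h, Dnajc3 by 0.92 ± 0.09 and Dnajb9, which acts on IRE1 and on degradation clients, by 0.36 ± 0.09. At 10 h Dnajb9 differed by 0.33 ± 0.09 (adjusted p = 0.0175, limma). That call was lost with median-of-ratios scaling (adjusted p = 0.0573), quantile normalization (0.15, adjusted p = 0.177) or only the libraries compared (adjusted p = 0.0684), and without the second untreated or either 10 h WT library (adjusted p = 0.0630 to 0.111).

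The 6 lectin chaperones and disulfide isomerases also rose at both times in WT. Pdia4, an isomerase, had the largest difference of all tested members at 10 h. It measured 39.4 and 30.5 FPKM untreated, 167 and 159 at 10 h and 181 and 177 at 24 h, differences of 2.20 ± 0.12 and 2.33 ± 0.12 (adjusted p = 4.6e-07 and 1.7e-07, limma). Calr, the soluble lectin chaperone, climbed through both intervals. Its libraries stood at 169.5 and 141 untreated, 324 and 295 at 10 h and 563 and 600.4 at 24 h, and the 24 h difference was 1.90 ± 0.12. Pdia6 measured 59.3 and 42.6, then 129 and 119.6, then 162 and 185, a difference of 1.77 ± 0.14 at 24 h. Neither gene's treated libraries overlapped the untreated ones. P4hb, the founding disulfide isomerase, rose by 1.06 ± 0.13 at 24 h and Pdia3, which works with the lectin chaperones, by 1.03 ± 0.14. Canx, the membrane-bound counterpart of Calr, measured 112 and 95.1 FPKM untreated, 176 and 179.7 at 10 h and 155 and 139 at 24 h. Its 24 h values lay below those at 10 h without a call (adjusted p = 0.115, limma). Its difference of 0.50 ± 0.12 at 24 h was called on the deposited scale and was 0.00 after quantile normalization (adjusted p = 0.982, limma).

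**Figure D2:**
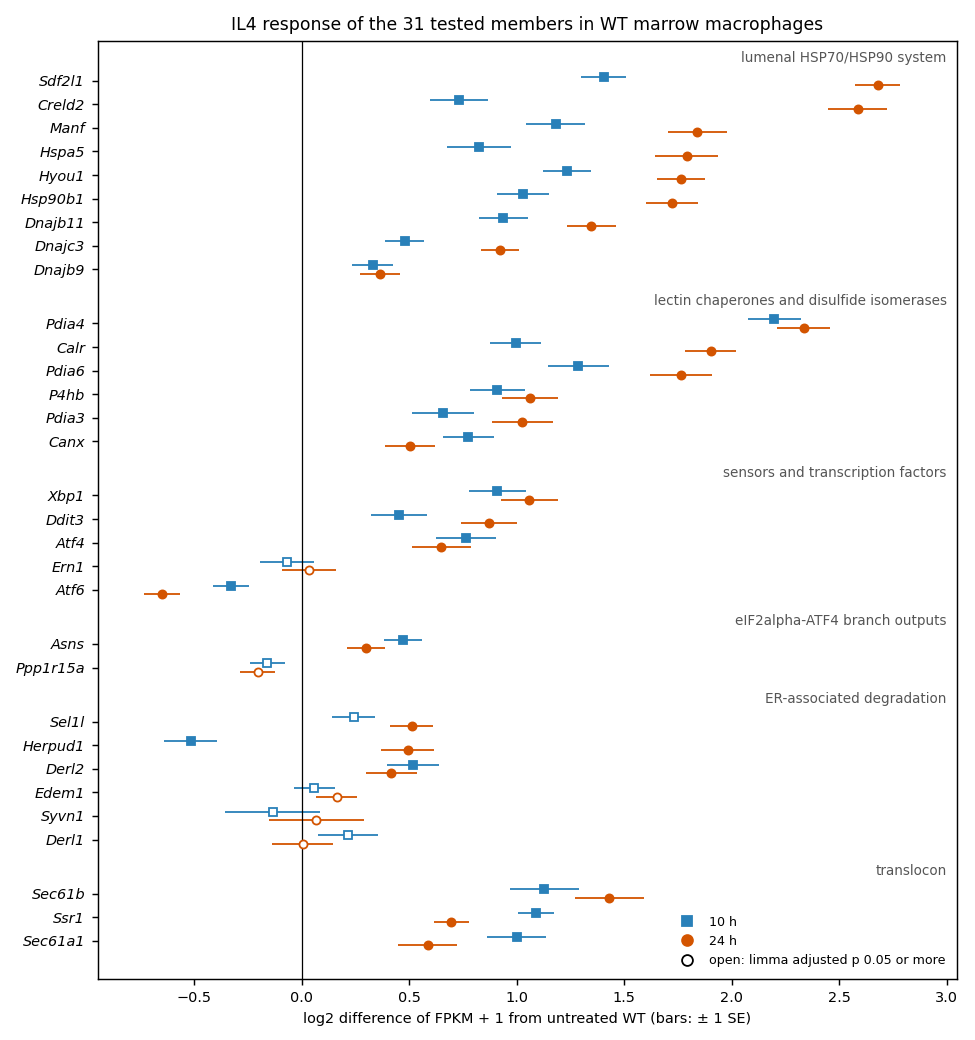
Log2 difference of FPKM + 1 from untreated WT BMDM for the 31 tested members, by role, at 10 h (blue squares) and 24 h (orange circles), n = 2 libraries per group, with bars of 1 SE. Filled symbols have an adjusted p under 0.05. The lumenal and isomerase genes lie right of 0 at both times, Atf6 lies left of 0, and Herpud1 changes side between the times.

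The sensors and transcription factors did not move together. Xbp1 measured 47.3 and 39.3 FPKM untreated, 81.7 and 82.0 at 10 h and 80.6 and 102 at 24 h, with differences of 0.91 ± 0.13 and 1.06 ± 0.13. Ern1, which encodes the enzyme that splices it, was not called, with differences of -0.07 (95% interval -0.35 to 0.21) and 0.03 (-0.25 to 0.31). Atf6 fell. Its libraries held 15.5 and 16.8 untreated, 12.3 and 13.0 at 10 h and 9.84 and 10.0 at 24 h, with no overlap between any 2 times. It fell by 0.33 ± 0.08 at 10 h and by 0.65 ± 0.08 at 24 h (adjusted p = 0.0103 and 1.3e-04, limma). Atf4 rose by 0.76 ± 0.14 and 0.65 ± 0.14, and Ddit3 by 0.45 ± 0.13 and 0.87 ± 0.13. The 10 h call of Ddit3 was lost with quantile normalization (0.24, adjusted p = 0.107, limma) and with only the libraries compared (adjusted p = 0.0575). Its 10 h difference was 0.31 without the second untreated WT library and 0.32 without the first WT library of 10 h.

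Of the outputs of the eIF2α and ATF4 branch, Asns was low in level and rose. Asns encodes asparagine synthetase and measured 3.25 and 3.46 FPKM untreated, 5.37 and 4.71 at 10 h and 4.37 and 4.32 at 24 h, differences of 0.47 ± 0.09 and 0.30 ± 0.09. Ppp1r15a, the phosphatase subunit GADD34 that reverses eIF2α phosphorylation, measured 9.04 and 8.46 untreated and 7.33 and 7.58 at 24 h. Its values at 24 h lay below the untreated ones, and the difference of -0.20 ± 0.08 was not called (adjusted p = 0.0572, limma).

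Genes of ER-associated degradation, which returns misfolded proteins to the cytosol for the proteasome, moved little. Of 6, 1 rose and 1 fell at 10 h, and 3 rose at 24 h. Herpud1, a membrane protein of the degradation complex, measured 31.7 and 24.7 FPKM untreated, 18.4 and 20.2 at 10 h and 37.4 and 42.3 at 24 h. It thus fell by 0.52 ± 0.12 at 10 h (adjusted p = 0.00689, limma) and rose by 0.49 ± 0.12 at 24 h (adjusted p = 0.00734, limma), the only tested member called in opposite directions at the 2 times in WT. Quantile normalization left the later rise at 0.24 (adjusted p = 0.0555, limma). Sel1l, the scaffold of the HRD1 ligase, rose at 24 h (0.51 ± 0.10) and Derl2, a channel component, at both times (0.52 ± 0.12 and 0.42 ± 0.12). The 24 h value for Derl2 was 0.24 without the second untreated WT library (adjusted p = 0.0976, limma), and its call was also lost without the second WT library of 24 h (adjusted p = 0.0547) and with only the libraries compared (adjusted p = 0.119). Syvn1, the HRD1 ligase itself, Edem1, a mannosidase-like protein, and Derl1 were not called at either time, with differences of 0.07, 0.16 and 0.00 at 24 h.

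The 3 translocon members, genes of the channel for nascent chains and of a complex associated with it, rose at both times. Sec61b, a small channel subunit, measured 100.4 and 70.6 FPKM untreated, 189.7 and 181 at 10 h and 212 and 246 at 24 h, a difference of 1.43 ± 0.16 at 24 h. Ssr1, a subunit of the translocon-associated complex, measured 10.1 and 9.25, then 22.0 and 21.5, then 16.3 and 16.2. Its 3 groups did not overlap and its highest level was at 10 h, with differences of 1.09 ± 0.08 and 0.70 ± 0.08. Sec61a1, the channel itself, had the same order of means, with 43.7 and 36.2, then 81.1 and 80.0, then 52.6 and 68.8. The 24 h call of Sec61a1 was lost with quantile normalization (0.26, adjusted p = 0.0525, limma) and with only the libraries compared (adjusted p = 0.0539).

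The 24 h libraries were next compared with the 10 h libraries. In WT 12 members rose and 3 fell between these times, where 11.6% of all genes rose and 14.3% fell. The later rises were in the lumenal system, with 8 of 9 called, led by Creld2 (1.86 ± 0.14) and Sdf2l1 (1.28 ± 0.11), and in Calr (0.91 ± 0.12), Pdia6 (0.48 ± 0.14), Ddit3 (0.42 ± 0.13) and Herpud1 (1.01 ± 0.12). Those that fell were Atf6 (-0.32 ± 0.08), Sec61a1 (-0.41 ± 0.14) and Ssr1 (-0.39 ± 0.08). Pdia4, P4hb, Xbp1 and Dnajb9 were not called, at 0.14, 0.15, 0.15 and 0.03. In labelled knockout BMDM 13 members rose and 3 fell, against 12.1% and 10.9% of all genes, and 9 of the rises were also called in WT (Hspa5, Hsp90b1, Dnajc3, Sdf2l1, Manf, Creld2, Calr, Pdia6 and Herpud1). There Atf4 (-0.45 ± 0.14), Asns (-0.54 ± 0.09) and Ppp1r15a (-0.38 ± 0.08) fell. The Atf4 call was lost without any 1 of the 4 labelled knockout libraries compared (adjusted p = 0.0567 to 0.228, limma) and with no filter (adjusted p = 0.0703), and that of Ppp1r15a without the second library of 10 h or the first of 24 h (adjusted p = 0.0558 and 0.0561). The 15 WT calls became 9 without the first and 8 without the second WT library at 10 h, and 9 when only the libraries compared were fitted.

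Labelled knockout BMDM responded to IL4 with largely the same members. At 10 h 20 rose and 3 fell, against 24.2% and 14.6% of all genes, and at 24 h 25 rose and 2 fell, against 26.5% and 17.1%. At 24 h 24 rises were shared with WT, Ddit3 was called in WT alone and Edem1 in labelled knockout alone, which is no test of a difference. Sdf2l1 measured 36.8 and 36.0 FPKM untreated, 82.8 and 77.4 at 10 h and 148 and 149 at 24 h (difference at 24 h 2.00 ± 0.11). Hspa5 stood at 309.6 and 289, then 389 and 388, then 655 and 717. Its 10 h difference of 0.38 ± 0.15 was not called (adjusted p = 0.067, limma), and at 24 h it rose by 1.19 ± 0.15. Pdia4 rose by 2.00 ± 0.12 and 1.98 ± 0.12, Creld2 by 0.61 ± 0.14 and 1.94 ± 0.14. Ppp1r15a, not called in WT, fell by 0.31 ± 0.08 and 0.68 ± 0.08, from 10.2 and 10.8 FPKM to 6.09 and 6.25 at 24 h.

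**Figure D3:**
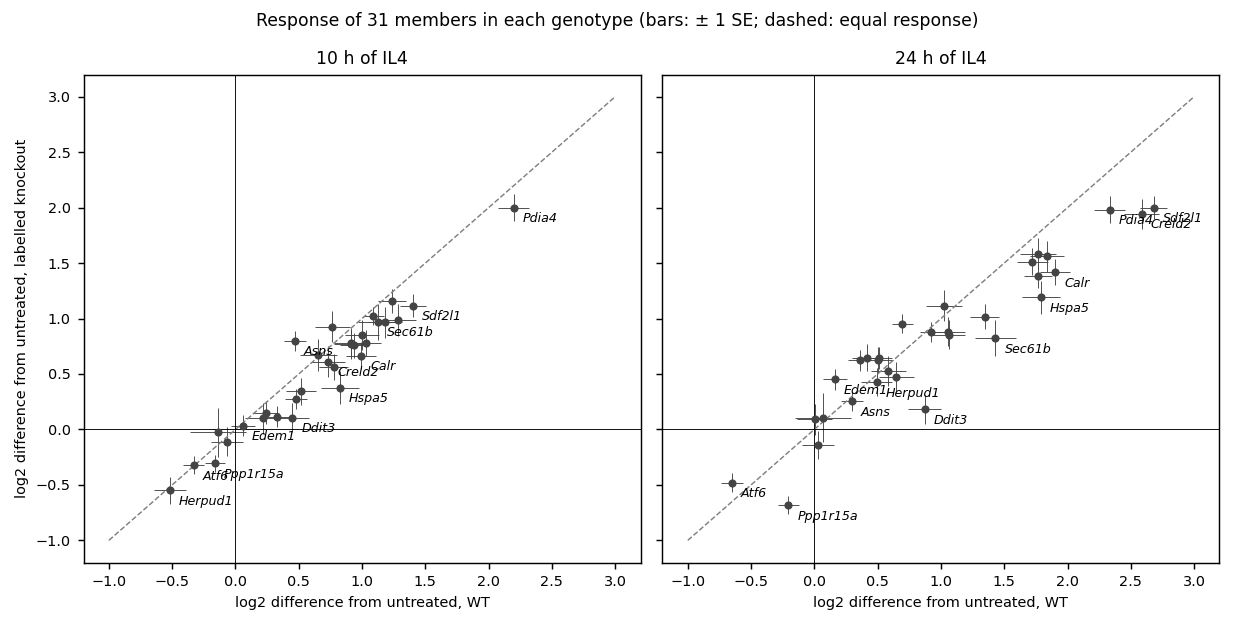
Log2 difference from untreated cells of the same genotype in labelled knockout BMDM (vertical) against WT BMDM (horizontal), for the 31 tested members at 10 h (left) and 24 h (right), with bars of 1 SE, n = 2 libraries per group. The dashed line marks equal responses. Most of the strongly rising genes lie below it, Sdf2l1, Creld2, Hspa5 and Ddit3 among them. None of these gaps passed the interaction test on the deposited scale.

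The difference of the responses was tested as an interaction. No member was called at 10 h or at 24 h, where 0.0951% and 0.295% of all genes were. The median of the members was -0.15 at 10 h and -0.18 at 24 h, beside -0.04 and -0.02 over all genes, with 26 of 31 and 21 of 31 below 0. The share of all genes below 0 is not given here. At 10 h 1 member, Asns (0.33 ± 0.12), had an unadjusted p under 0.05. At 24 h 8 members did, all with a negative interaction, against 8.59% of all genes in that direction. For 7 of them this was a smaller rise in labelled knockout, and for Ppp1r15a a larger fall. These were Sdf2l1 (-0.68 ± 0.15), Ddit3 (-0.69 ± 0.18), Creld2 (-0.64 ± 0.19), Sec61b (-0.61 ± 0.23), Hspa5 (-0.60 ± 0.21), Calr (-0.49 ± 0.17), Ppp1r15a (-0.48 ± 0.12) and Hyou1 (-0.38 ± 0.16). The smallest adjusted p was 0.0883 (limma), for Sdf2l1. For 6 of the 8, all but Creld2 and Sec61b, both untreated libraries of labelled knockout stood above both of WT. For Hspa5 they held 309.6 and 289 FPKM against 239 and 183. Untreated values enter the interaction by which the 8 were picked, so this count cannot be read as a separate result. The share of all genes with that order is not given here. The result depended on the scaling and on the untreated WT libraries. With all libraries kept, Sdf2l1 passed the threshold at 24 h under median-of-ratios scaling (-0.685, adjusted p = 0.0219, limma) and quantile normalization (-0.538, adjusted p = 0.0410). Without the first untreated WT library the values at 24 h were -0.79 for Sdf2l1, -0.82 for Creld2, -0.83 for Ddit3 and -0.79 for Hspa5. Members passed the threshold in that fit and did not without the second. Each of these fits leaves 1 library in the group, and the share of all genes called in them is not given here. The second of these libraries lay below the first in 25 of 31 members, by a median of -0.26 on the log2 scale, the largest such offset of the 6 groups. Its total over all genes was also lower, at 365118 FPKM, the lowest in BMDM, against 445502 in the first. The median offset over all genes is not given here, so the offset cannot be read as particular to the members. Both libraries are also the baseline of the WT IL4 differences and of the untreated genotype differences.

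Between genotypes few members differed at any time. In untreated BMDM 2 were called higher in labelled knockout (2.70% of all genes were called in either direction), at 10 h 1 (2.84%), and at 24 h 2 (7.43%). Averaged over the 3 times 3 were higher and 1 was lower (9.94%). The median member difference was 0.17 untreated, 0.04 at 10 h and 0.04 at 24 h.

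Asns was the member called at every time. Its 6 WT libraries ran from 3.25 to 5.37 FPKM. The labelled knockout libraries held 5.27 and 5.34 untreated, 9.61 and 10.3 at 10 h and 6.37 and 6.66 at 24 h. At each time both labelled knockout libraries were above both WT libraries, with ratios of mean FPKM of 1.58, 1.98 and 1.5. The differences were 0.53 ± 0.09, 0.86 ± 0.09 and 0.49 ± 0.09 (adjusted p = 0.0087, 4.8e-04 and 0.0105, limma), and 0.63 ± 0.05 averaged over times (adjusted p = 2.7e-05). The untreated and 24 h calls were lost when only the 4 libraries of that time were fitted (adjusted p = 0.0596 and 0.119) or when either labelled knockout library of that time was left out (0.0866 to 0.0936, and 0.0679 to 0.0908). The 10 h call and that of the average held under each alternative run.

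Calr was called higher in untreated labelled knockout BMDM, at 225 and 221 FPKM against 169.5 and 141 in WT. Its difference there of 0.52 ± 0.12 was near the threshold (adjusted p = 0.0472, limma), and the call was lost in a fit of those 4 libraries alone (adjusted p = 0.286) and when the second WT or either labelled knockout library was left out (adjusted p = 0.170 to 0.355). Its average over times, 0.25 ± 0.07, was as near (adjusted p = 0.0443, limma) and was lost in 9 of the 12 fits that left out 1 library. At 24 h its difference was 0.04 ± 0.12. In untreated cells more members were called higher without the first WT library, among them Sdf2l1 (0.56), Hspa5 (0.71), Pdia4 (0.56), Pdia6 (0.65) and Ddit3 (0.51). That fit leaves 1 library in its group, and the share of all genes called in it is not given here. Leaving out either labelled knockout library left no member called. Ssr1 was called at 24 h, at 21.9 and 22.8 FPKM in labelled knockout against 16.3 and 16.2 in WT, a difference of 0.43 ± 0.08 (adjusted p = 0.0139, limma). Leaving out either labelled knockout library of 24 h left no member called at that time, and so did fitting only its 4 libraries. The average over times for Ssr1 was 0.24 ± 0.05 (adjusted p = 0.00982, limma).

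Ern1 was the member lower in labelled knockout. Its libraries held 5.70 and 6.30 FPKM untreated, 5.90 and 5.10 at 10 h and 5.25 and 5.47 at 24 h, against 7.38 and 7.54, 7.09 and 7.04, and 6.51 and 8.96 in WT. The genotypes did not overlap at any of the 3 times. No single time was called (differences -0.27, -0.31 and -0.44), and the average was -0.35 ± 0.07 (adjusted p = 0.0141, limma). The average was not called without the first untreated or the second 10 h library of labelled knockout (adjusted p = 0.0522 and 0.0526). Scaling by median of ratios or quantiles brought the 24 h difference past the threshold (adjusted p = 0.0212 and 0.0216).

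**Figure D4:**
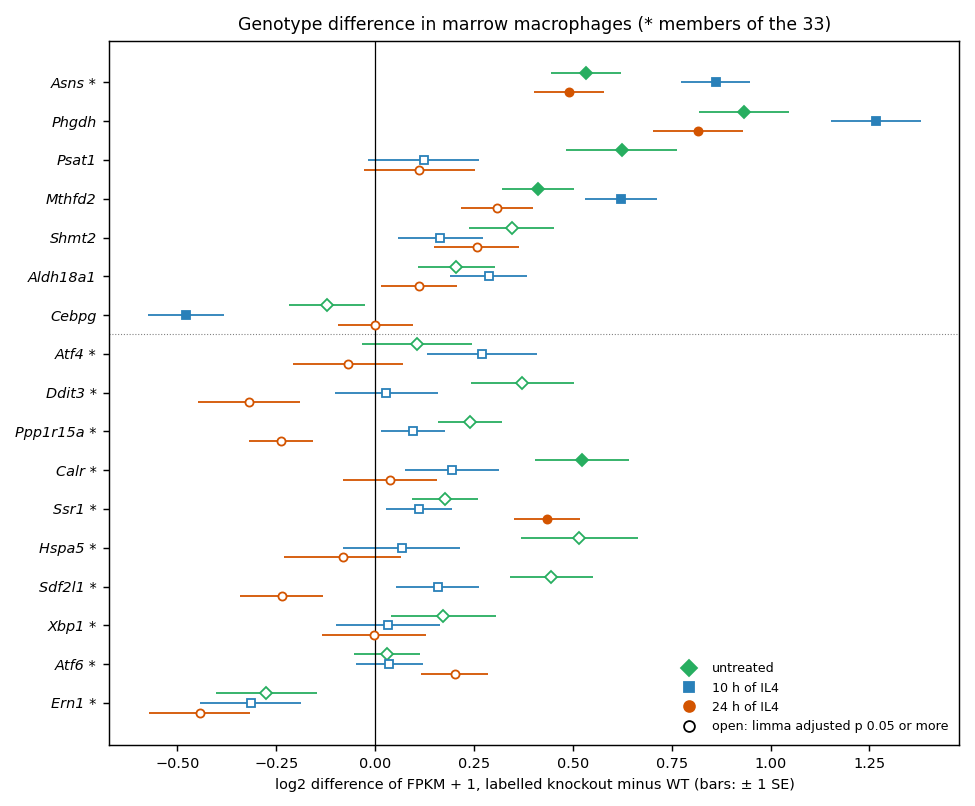
Log2 difference of FPKM + 1 between labelled knockout and WT BMDM, untreated (green diamonds), at 10 h (blue squares) and at 24 h (orange circles), with bars of 1 SE, n = 2 libraries per group. Filled symbols have an adjusted p under 0.05, genes above the dotted line other than Asns belong to the list of ATF4 targets, and stars mark members. Asns and Phgdh lie right of 0 at all times with filled symbols, and Ern1 lies left of 0 with open symbols.

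Asns is an ATF4 target, and the other listed targets of ATF4 were therefore set beside it. Of 24 tested, 3 were higher in untreated labelled knockout, 2 were higher and 1 lower at 10 h, 2 were higher and 2 lower at 24 h, and 6 were higher and 1 lower on average over times. Over all genes 2.70%, 2.84%, 7.43% and 9.94% were called in either direction in these comparisons. The genes named here were chosen after their values were seen. Phgdh, which commits 3-phosphoglycerate to serine synthesis, was called at each time, with 3.08 and 2.71 FPKM against 0.956 and 1.12 untreated, 7.56 and 6.25 against 2.28 and 2.26 at 10 h, and 4.78 and 4.72 against 2.54 and 2.01 at 24 h. No labelled knockout library overlapped the WT libraries of the same time, and the average difference was 1.00 ± 0.07 (adjusted p = 7.5e-06, limma). The next enzyme of that route, Psat1 (0.29 ± 0.08), and the one-carbon enzymes Mthfd2 (0.45 ± 0.05) and Shmt2 (0.26 ± 0.06) were higher on average as well, as were Aldh18a1 of proline synthesis (0.20 ± 0.06) and the tRNA exporter Xpot (0.18 ± 0.05). Cebpg, a partner of ATF4, was lower (-0.20 ± 0.06). At 24 h Cebpb (-1.04 ± 0.23) and Nupr1 (-0.47 ± 0.12) were lower. Atf4 itself was not called at any time, with differences of 0.11, 0.27 and -0.07.

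Markers of other cells moved with the labels in BMDM. The 9 fibroblast markers summed to 27 to 29 FPKM in untreated labelled knockout BMDM and 5.91 to 6.38 in WT, to 26.4 to 27.2 and 5.34 to 6.47 at 10 h, and to 11.8 to 12.3 and 2.84 to 2.96 at 24 h. Of 8 T and NK cell markers only Cd4 reached 1 FPKM in 2 libraries, and it was higher in untreated labelled knockout (1.35 ± 0.09, adjusted p = 3.0e-05, limma), while Cd3g was listed at 0 in all 12 libraries. At 24 h neutrophil markers summed to 67.8 to 102.7 FPKM in labelled knockout and 146.9 to 148.6 in WT. B and plasma cell markers summed to 15.5 to 16 and 22.0 to 29.0, and endothelial markers to 3.64 to 4.81 and 2.39 to 2.44. Single genes went against these sums. Cxcr2 of the neutrophil list (0.13) and Cd79b of the B and plasma cell list (0.47) were higher in labelled knockout. Kdr of the endothelial list was slightly lower (-0.04). The macrophage marker sum overlapped between the labels in untreated cells and was lower in labelled knockout after IL4. It was 7961 to 8616 against 10132 to 10216 FPKM at 10 h, and 7279 to 7340 against 9694 to 11315 at 24 h. Its genes did not all move together. At 24 h Lyz2, Fcgr1, Itgam, Csf1r and Cd68 were lower (-0.59, -0.74, -0.39, -0.22 and -0.06), while Emr1 and Mertk were higher (0.10 and 0.21). At 10 h Cd68 and Mertk were higher (0.15 and 0.08), and the other genes of that list were lower. The part of these marker lists in the genotype differences was not tested. Fewer cells of a type and less RNA per cell cannot be told apart in bulk libraries.

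In TAM 32 of the 33 members were tested, all but Chac1, and none was called between labelled knockout and WT, where 10 of 9897 genes (0.101%) were. Of the 32 differences 30 were above 0, with a median of 0.37 beside 0.09 over all tested genes. The share of all genes above 0 over the 8 libraries is not given here. An unadjusted p under 0.05 was reached by 11 members, all higher in labelled knockout, against 12.4% of all genes in that direction. All 4 labelled knockout libraries lay above all 4 WT libraries for 10 members, against 9.13% of all genes. These 10 were Hspa5, Dnajb11, Sdf2l1, Manf, Canx, Ern1, Atf6, Xbp1, Derl1 and Derl2.

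The smallest p-values were again in the lumenal system. Sdf2l1 measured 17.8, 15.9, 19.3 and 24.2 FPKM in WT TAM (libraries 1, 2, 7 and 8) and 38.0, 27.5, 47.7 and 32.9 in labelled knockout (libraries 3 to 6). The groups did not overlap, and the difference of 0.87 ± 0.20 had an adjusted p of 0.122 (limma). Hspa5 measured 275, 384, 258 and 289 in WT and 485, 438, 569 and 538 in labelled knockout, a difference of 0.76 ± 0.18 (adjusted p = 0.137, limma). Dnajb11 measured 37.1, 40.6, 47.5 and 40.0 against 63.1, 56.0, 65.7 and 62.6. Its difference of 0.57 ± 0.12 had the smallest adjusted p of the members, 0.111. Manf followed with 0.51 ± 0.14 and groups that did not overlap. Creld2 (0.67 ± 0.22), Calr (0.68 ± 0.25), Pdia3 (0.65 ± 0.23) and Hsp90b1 (0.63 ± 0.27) were of like size, and their groups overlapped.

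Among the sensors Ern1 measured 8.48, 9.23, 7.98 and 6.87 in WT and 10.9, 9.37, 10.9 and 11.7 in labelled knockout TAM, 0.36 ± 0.12. This is the opposite side from BMDM, where every labelled knockout library was below the WT libraries of its time; the 2 differences were not tested against each other. Ddit3 was at 14.7, 10.7, 11.7 and 7.13 against 17.5, 19.3, 14.2 and 21.6 (0.69 ± 0.21), and Xbp1 differed by 0.36 ± 0.15. Asns, the member that stood out in BMDM, was at 2.30, 3.58, 0.68 and 1.95 against 2.15, 1.71, 3.17 and 3.96, with overlapping groups and a difference of 0.31 ± 0.32. The members of degradation and translocation differed by between -0.05 and 0.38. Canx is listed at 0 in WT library 8 and at 46.7, 48.9 and 51.8 in the other WT libraries. Its difference of 1.84 ± 1.19 became 0.43 ± 0.19 (adjusted p = 0.301, limma) with that entry treated as missing.

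**Figure D5:**
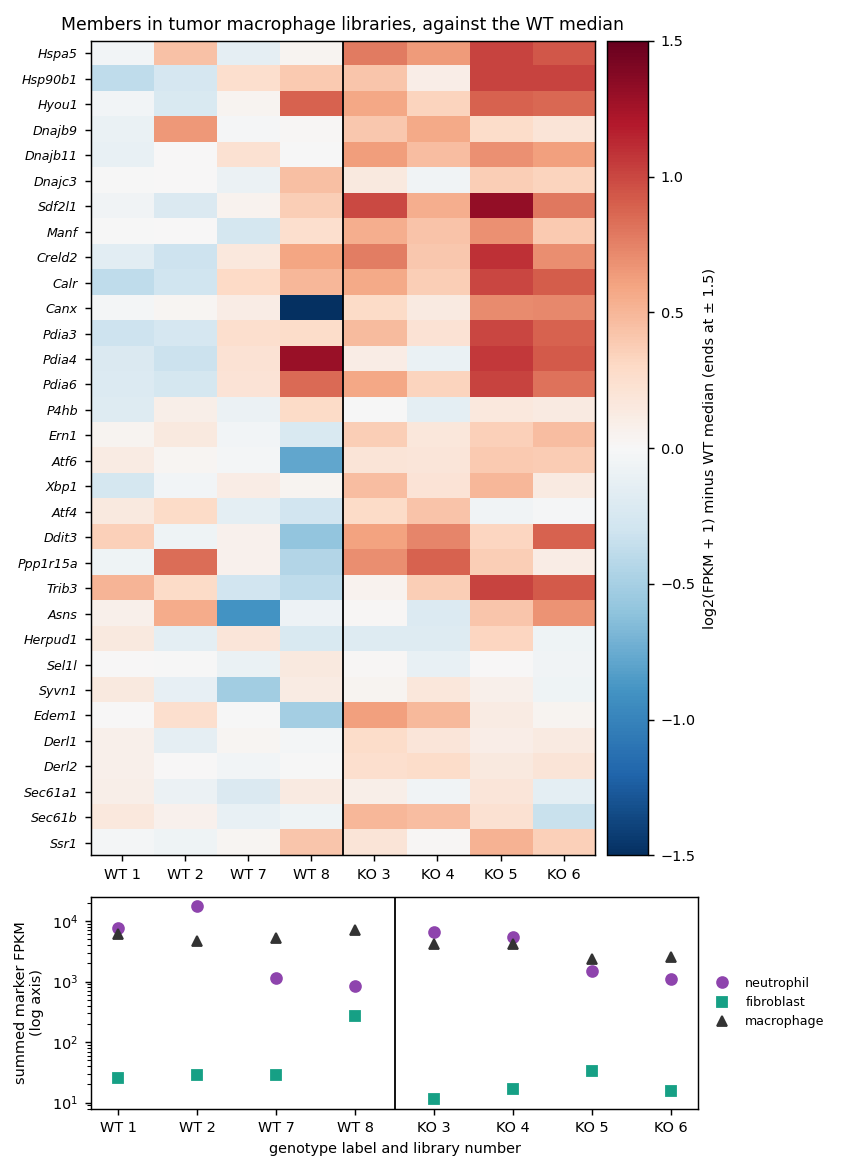
Upper panel, log2(FPKM + 1) of the 32 tested members in each TAM library minus the median of the 4 WT libraries (red above, blue below, colors end at 1.5). Lower panel, summed FPKM of neutrophil, fibroblast and macrophage markers in the same libraries on a log axis. Most rows are red in labelled knockout libraries 5 and 6 and paler in 3 and 4, and WT library 8 stands apart in the fibroblast sum and in single genes such as Pdia4 and Canx.

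The TAM libraries differed in the markers of other cells, and these moved with library numbers and in part with the labels. Neutrophil markers summed to 5513 to 17489 FPKM in libraries 1 to 4, which hold both labels, and to 845 to 1474 in libraries 5 to 8. Within libraries 1 to 4, 27 of 32 members were higher on average in labelled knockout (median 0.27, with 62.1% of all genes higher and a median of 0.09), and within libraries 5 to 8, 31 of 32 were (median 0.40, with 58.7% and 0.09). Sdf2l1 differed by 0.91 and 0.84, Hspa5 by 0.50 and 1.02, and Asns by -0.41 and 1.03 in these sets of 4. A term for the sets left 0 members called. Macrophage markers summed to 4745 to 7178 in WT and to 2341 to 4221 in labelled knockout, endothelial markers to 5.20 to 19.3 and 20.6 to 50.5, and fibroblast markers to 273 in WT library 8 against 11.5 to 33 elsewhere. Lyz2 was the largest part of the macrophage sum, at 3611 to 5875 in WT and 1091 to 3027 in labelled knockout. Csf1r, Itgam and Mertk were also lower there (-0.27, -0.02 and -0.83), while Cd68, Emr1 and Fcgr1 were higher (0.23, 0.14 and 0.64). Pecam1 was most of the endothelial sum, at 3.36 to 15.8 in WT and 17.0 to 46.3 in labelled knockout. Kdr was higher as well (0.98), Cdh5 was highest in WT library 8 (1.71), and Tek was near 0. The part of these markers in the TAM differences was not tested. Without WT library 8, 14 members had an unadjusted p under 0.05 and none was called, and after quantile normalization 23 of 32 differences were above 0 and 3 members had such a p. The shares of all genes in these fits are not given here, so these counts cannot be set against them.

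Neighbouring parts of the secretory pathway were read in the same way for WT BMDM at 24 h, with the 3 genes of smallest p named for each list. Over all tested genes 29.7% were higher and 20.3% lower in that comparison, a share that the counts for COPII traffic, other degradation and the other sensors did not clearly exceed. Oxidative folding had 12 of 18 tested genes higher and none lower, with Fkbp2 (1.68 ± 0.12), a peptidyl-prolyl isomerase, Sil1 (1.11 ± 0.13), an exchange factor for BiP, and Ero1lb (0.84 ± 0.10), an oxidase of disulfide isomerases. Translocation and signal cleavage had 16 of 22 higher and none lower, with Spcs3 (0.91 ± 0.08), Ssr4 (1.36 ± 0.14) and Sec61g (1.22 ± 0.17). N-glycosylation had 11 of 15 higher and 1 lower, with the oligosaccharyltransferase subunits Rpn1 (1.40 ± 0.11) and Rpn2 (1.03 ± 0.12) and the glucosidase subunit Prkcsh (0.87 ± 0.12). Other degradation genes had 3 of 19 higher and 2 lower (Vimp 0.76 ± 0.11, Os9 0.67 ± 0.12, Herpud2 -0.54 ± 0.13). COPII and KDEL receptor traffic had 6 of 20 higher and 3 lower (Lman1 0.87 ± 0.09, Sec23b 0.61 ± 0.11, Sar1a 0.55 ± 0.11). The other sensors and their regulators, a list that also holds Dnajc3, had 4 of 16 higher and 3 lower (Dnajc3, Wfs1 0.70 ± 0.14, Mbtps2 -0.59 ± 0.16). Heat shock genes outside the ER, which answer to HSF1 and not to the ER sensors, had 11 of 12 higher and none lower (Hsph1 1.32 ± 0.12, Hspe1 1.34 ± 0.14, Hspa1a 1.16 ± 0.13). That list is mostly cytosolic, but Hspe1 and Hspd1 encode mitochondrial chaperones. ATF4 targets had 14 of 24 higher and 3 lower (Psat1 2.62 ± 0.14, Atf3 2.32 ± 0.13, Mthfd2 1.80 ± 0.09).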

How the data were processed

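RNA was measured in 12 BMDM and 8 TAM libraries. The 4 libraries of immunoprecipitated 5-hydroxymethylcytosine were not analysed here. The authors deposited FPKM of each gene in each library. TopHat, Cuffdiff and the mm9 build are named in the submitters' processing notes, and versions, annotation and filters are not given in the sources used here. The TAM file does not name its unit, which was taken from these notes. Values were analysed as log2(FPKM + 1) with limma 3.58.1 in R 4.3.3, with an intensity trend. Genes reaching 1 FPKM in at least 2 BMDM or 4 TAM libraries were tested (10510 and 9897). The 12 BMDM libraries were fitted as 6 groups and the 8 TAM libraries as 2, each with 6 residual degrees of freedom (10.3 and 8.5 with the prior), with Benjamini-Hochberg adjustment over all genes tested in a comparison (threshold 0.05). FPKM holds no counts, so depth and counting intervals are unknown. Of 2 repeated symbols the entry with the higher mean was kept. Up to 8 members with the smallest adjusted p in a comparison, and members that go against their role, were named in full. The other lists give 3 genes by p. Alternatives were another pseudocount, no or a stricter filter, median-of-ratios and quantile scaling, a replicate block, no trend, only the libraries compared, and leaving out each library. The term for TAM library numbers and the missing Canx entry were added after seeing the data. Scripts were tested on simulated data. Python 3.11.15, numpy, pandas and matplotlib made the figures. The members and lists were chosen with earlier results of these data known.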

Additional observations from a re-analysis of the deposited data

Results flagged for a closer look

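Among 66 sets of 4 TAM values (33 members in each label), 4 had a library far from the other 3, where chance alone gives about 1 in 20 sets. Dnajb9, a J-domain protein, was at 54.1 FPKM in WT library 2 and at 31.7 to 34.5 in the other WT libraries, and that library also has the highest neutrophil marker sum. WT library 8, which has the high fibroblast marker sum, gave the other 3: Dnajc3 at 24.4 FPKM, Ssr1 at 15.3, and Canx listed at 0. The part of these markers was not tested.

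Ern1 lay on opposite sides in the 2 kinds of macrophage. All labelled knockout BMDM libraries were below the WT libraries of the same time, and all labelled knockout TAM libraries were above all WT TAM libraries, with a log2 difference of 0.36 in TAM. This contrast between BMDM and TAM was not tested.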

How the results depend on the processing

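Over the BMDM and TAM alternatives, the 141 calls of members were refitted 1583 times. Of these refits 1436 kept the call, 147 lost it and 0 reversed the direction, and 97 calls held in every refit. For 24 h against 10 h in WT, where 15 members were called, fitting only the libraries compared gave 9, and leaving out single replicates gave 8 to 14. For genotype in untreated BMDM (2 called), requiring 1 FPKM in every library gave 1, the replicate block gave 1, fitting only the libraries compared gave 0, and leaving out single replicates gave 0 to 8. For genotype at 24 h (2 called), median-of-ratios scaling gave 7 (2 higher, 5 lower), quantile normalization gave 10 (6 higher, 4 lower), fitting only the libraries compared gave 0, and leaving out single replicates gave 0 to 3. For the average over times (4 called) leaving out replicates gave 2 to 8. For the interaction at 24 h (0 called) median-of-ratios scaling and quantile normalization gave 1 each, and leaving out replicates gave 0 to 9. The cause of these changes was not tested, and the shares of all genes called in these BMDM refits are not given here. TAM had 0 members called under each alternative run, while the count over all genes ran from 1 to 31.

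Quantile normalization moved the median of all genes at 10 h in WT from 0.09 to -0.02 and the members from 23 higher and 2 lower to 20 and 3, and the share of rises among all calls from 66.5% to 48.9% (54.1% with median-of-ratios scaling). The labels do not say whether replicate numbers 1 and 2 pair the BMDM samples. Deviations of same-numbered libraries correlated at -0.14 to 0.15 over 15 pairs of groups, with 5 pairs above 0.1. Such correlations cannot exclude a shared animal or batch. With the replicate block, WT counts at 10 and 24 h stayed at 25 and 26, those of labelled knockout became 21 and 26, the average over times 3, and 24 h against 10 h gave 14 in each genotype. A leave-out leaves 1 library in its group, which is then assumed to vary like the other groups. Depth is unknown, and with 2 libraries a group small differences in BMDM may be missed.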
